A study of Mus musculus with 18 samples.

Results

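Transcripts of 10 heat shock and chaperone genes were followed in kidney RNA of mouse offspring: Hspa1a, Hspa1b, Hsph1, Dnajb1, Hspa8, Hspb1, Hsp90aa1, Hspa5, Hsp90b1, and Hspd1. The members were chosen by name from the 78239 genes listed for each library, and all 10 had at least 10 counts in every library, as did 12665 genes in all. The mice were wild-type CD-1 animals, 6 wk old, whose dams ate either a low protein (LP) diet with 8% protein or a normal protein (NP) diet with 18% protein through gestation and lactation, and all offspring were weaned onto the NP diet. Each library came from a piece of the left kidney of 1 mouse, giving 5 libraries each from LP males, NP males, and LP females and 3 from NP females. The study reports fewer litters than mice for its adult part, and the litter of each library is not given in the sources used here. CD-1 is an outbred stock, every mouse had been injected with cationic ferritin for imaging, and males were collected 90 min but females 24 h after the last injection. Sex and collection time therefore cannot be told apart in any comparison of males with females.

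Chaperones bind unfolded proteins and use ATP, or partners that use it, to help them fold. In the cytosol, the inducible Hsp70 proteins made from Hspa1a and Hspa1b are classic targets of the heat shock factor HSF1, while Hspa8 encodes the constitutive Hsp70 cognate, Hsph1 a nucleotide exchange factor, Dnajb1 a J-domain co-chaperone, Hsp90aa1 the inducible Hsp90, and Hspb1 a small heat shock protein that holds unfolded clients without ATP. Hspa5 (BiP) and Hsp90b1 (GRP94) work in the endoplasmic reticulum (ER) and are targets of the unfolded protein response, and Hspd1 encodes the mitochondrial chaperonin. In the kidney, the medulla is hyperosmotic, and heat shock proteins are known to be abundant there.

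The promoters show the sequence element by which each arm of the response is known to be read, and they are given because the cytosolic and ER members are known targets of different factors. HSF1 binds inverted repeats of GAA, so the letters GAANNTTC and TTCNNGAA were searched in the 250 bases before the canonical start of each member on GRCm39 (GENCODE vM39), each of which is its own reverse complement. The adjacent genes Hspa1a and Hspa1b had 247 of these 250 bases in common, and both held GAANNTTC at the same distance from the start. The 150 bases before the starts of Hspa1a (chr17:35191133-35191282, minus strand), Hspa1b (chr17:35178215-35178364, minus strand), and Hspb1 (chr5:135916610-135916759, plus strand) are shown with the motif in capitals.
Hspa1a: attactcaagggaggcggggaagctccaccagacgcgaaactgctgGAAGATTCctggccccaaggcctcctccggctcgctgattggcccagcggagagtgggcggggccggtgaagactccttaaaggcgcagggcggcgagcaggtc
Hspa1b: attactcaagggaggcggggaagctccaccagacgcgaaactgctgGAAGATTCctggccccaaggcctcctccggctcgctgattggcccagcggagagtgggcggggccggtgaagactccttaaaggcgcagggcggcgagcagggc
Hspb1: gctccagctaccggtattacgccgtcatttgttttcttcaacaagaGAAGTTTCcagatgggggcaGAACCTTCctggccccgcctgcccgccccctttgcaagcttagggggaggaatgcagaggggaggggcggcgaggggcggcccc

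GAANNTTC was found in 4 of the 10 members (Hspa1a, Hspa1b, Hspb1, and Hspd1) and in 6.33% of all 21770 promoters of protein-coding genes. TTCNNGAA was found in 2 members, Hsph1 and Hspd1, and in 6.79% of all promoters. Hspd1 was the only member with 3 contiguous repeats (GAANNTTCNNGAA or TTCNNGAANNTTC, which overlap the shorter forms), seen in 0.349% of promoters. Hspd1 held 2 such matches, which overlap each other, and only the upstream one is in capitals below. The ER stress element, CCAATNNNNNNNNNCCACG on either strand, was found in the ER members Hspa5 and Hsp90b1 and in 0.115% of promoters. Of the 23 ER genes listed as companions below, 6 held the ER stress element (Pdia6, Calr, Canx, Dnajc3, Creld2, and Syvn1). Of the 24 cytosolic companions listed there, 3 held GAANNTTC, 1 held TTCNNGAA, and 0 held 3 contiguous repeats. Among the 9 mitochondrial companions, 1 (Hspe1) held 3 contiguous repeats. Short stretches around the matches in the remaining members that held one are printed with the motif in capitals. They lie at chr5:149559822-149559839 (minus strand), chr1:55127218-55127240 (minus strand), chr2:34662032-34662060 (plus strand), and chr10:86541497-86541525 and chr10:86541392-86541420 (both minus strand), in the order given.
Hsph1: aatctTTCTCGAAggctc
Hspd1: gggccTTCCGGAAGGTTCtagaa
Hspa5: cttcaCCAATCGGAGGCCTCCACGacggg
Hsp90b1, upstream match: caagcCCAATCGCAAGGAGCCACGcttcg
Hsp90b1, downstream match: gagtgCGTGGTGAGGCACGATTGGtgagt
Dnajb1, Hspa8, and Hsp90aa1 held none of these letters in the window, which says nothing about the factors that bind there. Factor binding was not measured in these mice.

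Between 14050486 and 23562411 reads were counted on genes in each library. Levels are given as CPM, counts divided by library totals scaled with edgeR's trimmed mean of M values (TMM), and levels of different genes are compared only per kilobase of merged exon. Clustering of the libraries by all 12665 genes split off 3 female libraries (LP female 1, LP female 2, NP female 3) from the remaining 15, so the members' fold changes with females and the counts called between the sexes are also given without these 3 libraries. Reads that map to several places made up 5.92% to 12.6% of a library, with the highest share in NP female 3. Proximal tubule markers summed to between 5667 and 13066 CPM in every library, whereas Cyp11b1, a defining adrenal gene, and Cd3e of T cells were at 0 in at least 1 library.

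As counted, and within the limits given below, Hspa8, Hspd1, and Hspa5 had the highest mean levels per kilobase of exon in every group. Per kilobase of exon, Hspa8 (chr9:40711630-40731039, plus strand) had the highest mean level over the 18 libraries, 193 CPM, followed by Hspd1 (chr1:55116989-55171038, minus strand) with 173 and Hspa5 (chr2:34661982-34668880, plus strand) with 105. Hsp90aa1 (chr12:110656842-110669166, minus strand) had 79.8 CPM per kilobase and Hsp90b1 (chr10:86526073-86541446, minus strand) had 38.0. The levels of Hspb1 (chr5:135916760-135918417, plus strand), Hsph1 (chr5:149537636-149560156, minus strand), and Dnajb1 (chr8:84334811-84339820, plus strand) lay close together, at 16.1, 13.1, and 12.6 CPM per kilobase, and their ranges over libraries overlapped. The inducible genes were lowest, with 7.28 CPM per kilobase for Hspa1b (chr17:35175412-35178214, minus strand) and 1.72 for Hspa1a (chr17:35188166-35191132, minus strand). Neighbors in this order overlapped over the 18 libraries except at 1 step, where every library of Hsp90b1 (lowest 31.2) lay above every library of Hspb1 (highest 29.3). Hspa8 exceeded Hspd1 in 11 of 18 libraries, and Hspa1b exceeded Hspa1a in 18 of 18.

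**Figure D1:**
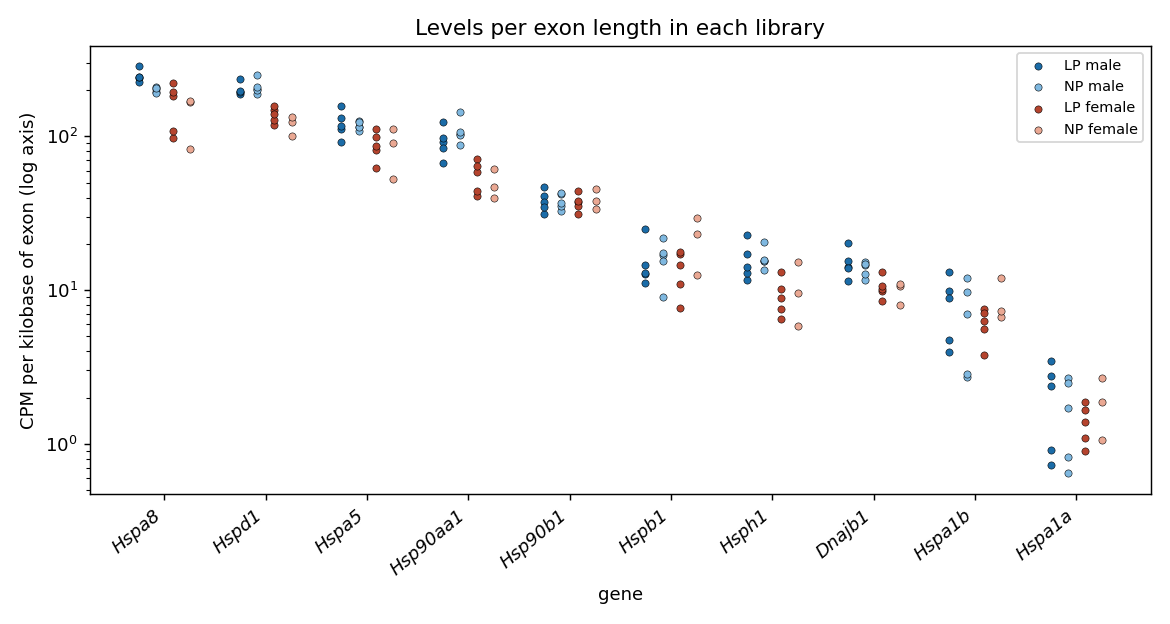
CPM per kilobase of exon (log axis) of each of the 10 genes in each of the 18 libraries, with 1 point per mouse and colors for the 4 groups. Genes are ordered by their mean, from Hspa8 (193) down to Hspa1a (1.72), and the points of Hspa1a and Hspa1b are the most widely scattered.

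Counting without strand limits the level of some members. Hspa1a is overlapped on the opposite strand by Gm20481, and reads there are ambiguous in non-directional data: its count was 26.4% to 47.0% of the sum of the strand-specific counts. The ratio of Hspa1b to Hspa1a counts was 3.13 to 6.53 (median 4.01) as counted, and 1.29 to 2.56 (median 1.66) from the strand-specific sums. Hsp90b1 retained 57.9% to 70.9% and Hsp90aa1 86.2% to 94.8% of their strand-specific sums. Near-identical copies limit counting as well, since reads that map to several places were not counted on a gene. Of all 100-base windows in the exons of a member, the share with an identical copy elsewhere in GRCm39 was 48.6% for Hspa1a, 49.9% for Hspa1b, 40.2% for Hspb1, 36.6% for Hsp90aa1, 12.5% for Hspd1, 12.4% for Hspa8, and 2.93% for Hsp90b1. It was 0% for Hsph1, Dnajb1, and Hspa5. Levels of the first 4 are therefore uncertain on the per-kilobase scale. That scale also depends on the merged exon length, which takes in the exons of all annotated transcripts. It was 11113 bases for Hsph1, 8680 for Hspa8, and 1044 for Hspb1, and which transcripts were in use was not determined. Before this division, the median was 148 CPM for Hsph1 and 15.7 CPM for Hspb1.

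**Figure D2:**
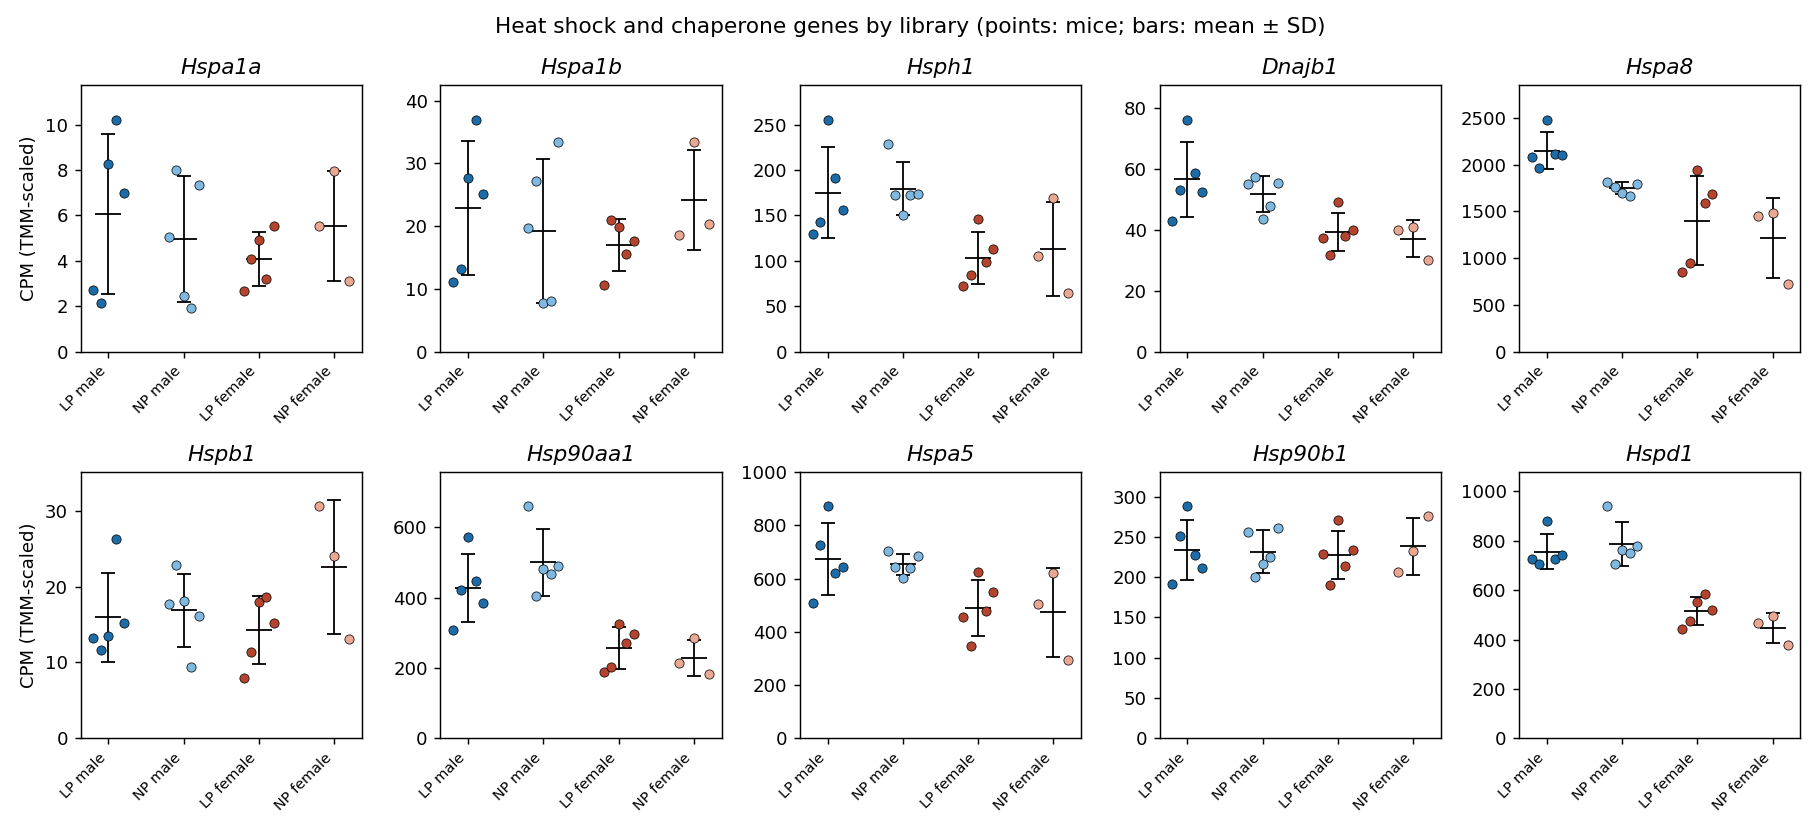
TMM-scaled CPM of each gene in each mouse, with 5 males of each diet, 5 LP females, and 3 NP females. Points are mice and bars the mean ± SD; in Hspa8 every LP male lies above every NP male, and in Hspd1 every male lies above every female.

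The first question was whether the maternal LP diet changed these genes at 6 wk. In males, 0 of the 10 members passed the test (edgeR's quasi-likelihood test, adjusted p under 0.05), against 0.0379% of the 13181 genes tested; 1 member had an unadjusted p under 0.05, against 3.84% of all genes. In females, 0 of 10 passed, against 0% of 13510 genes, and 0 had an unadjusted p under 0.05, against 4.17% of genes. For the interaction of diet and sex, 0 of 10 members passed, against 0.0158% of 12665 genes, with 0 members at an unadjusted p under 0.05 against 4.02%. DESeq2's Wald test called 1 member in males and 0 in females, with 0 for the interaction. The median log2 fold change (LP minus NP) of the members was 0.02 in males and -0.05 in females, beside a median of -0.0039 and -0.01 over all genes tested.

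Hspa8, the constitutive Hsp70, was the member with an unadjusted p under 0.05 in males. Its level was 2087, 1964, 2482, 2110, and 2109 CPM in the 5 LP males. It was 1815, 1758, 1699, 1669, and 1796 CPM in the 5 NP males. Every LP male thus lay above every NP male, which was so in either direction for 0.698% of all genes tested. By edgeR the difference was 0.29 on the log2 scale (SE 0.08, unadjusted p = 0.00373, adjusted p = 0.9996). The exact two-sided permutation test gave p = 0.00794, the smallest that 5 against 5 mice allow, and it was 1 of 40 such tests of members, so that this p is not corrected for their number. Of the tools and settings tried, DESeq2's Wald test alone called Hspa8, with an adjusted p of 0.0357, and its log2 fold change was between 0.24 and 0.32 when any 1 male was left out. In females, Hspa8 was 848, 946, 1939, 1593, and 1682 CPM in LP mice and 1450, 1478, and 720 CPM in NP mice, and the groups overlapped (log2 fold change 0.17, SE 0.33, adjusted p = 0.942 by edgeR). The low values of both female groups were those of the 3 libraries that stood apart.

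The inducible cytosolic genes were not called by diet in either sex, and with all libraries the values of the diet groups overlapped. Hspa1b was 11.2, 13.2, 27.7, 37.0, and 25.1 CPM in LP males and 19.7, 27.2, 7.67, 8.02, and 33.5 CPM in NP males. Low and high mice occurred in both groups, and the log2 fold change of 0.25 was smaller than its SE of 0.42. Hspa1a, its neighbor on chromosome 17, was 2.72, 2.16, 8.24, 10.2, and 7.0 CPM in LP males and 5.06, 7.98, 2.45, 1.90, and 7.35 CPM in NP males. In females, Hspa1b was 10.6, 21.0, 19.9, 15.6, and 17.6 CPM with LP and 18.7, 33.4, and 20.4 CPM with NP, a difference of -0.55 on the log2 scale (SE 0.27, adjusted p = 0.886 by edgeR). Hspa1a in females was 2.66, 4.08, 4.93, 3.21, and 5.53 CPM with LP and 5.51, 7.94, and 3.12 CPM with NP. The ranges of the female groups overlapped for both genes. Hspb1, the small heat shock protein, had the log2 fold change of greatest size among members in females, -0.70 (SE 0.32, adjusted p = 0.886 by edgeR), with 7.99, 11.4, 17.9, 18.6, and 15.2 CPM in LP and 30.6, 24, and 13.1 CPM in NP mice. These groups overlapped as well, through NP female 3. Without the 3 libraries that stood apart, 0 members were called for diet in females by edgeR, with log2 fold changes of -0.67 (SE 0.19, adjusted p = 0.972) for Hspb1, -0.56 (SE 0.26) for Hspa1b, -0.56 (SE 0.32) for Hspa1a, and 0.24 (SE 0.17) for Hspa8.

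The other members did not pass the test by diet. Hsp90aa1 in males was 309, 422, 572, 447, and 385 CPM with LP and 659, 405, 481, 468, and 491 CPM with NP (log2 fold change -0.23, SE 0.16). NP male 1 was the highest of all 18 libraries for Hsp90aa1 and for Hspd1. The ER chaperones Hspa5 and Hsp90b1 had log2 fold changes of 0.04 (SE 0.12) and 0.01 (SE 0.11) in males, and of 0.02 (SE 0.25) and -0.12 (SE 0.17) in females. Hsph1, Dnajb1, and Hspd1 had log2 fold changes of -0.04 (SE 0.17), 0.12 (SE 0.14), and -0.07 (SE 0.10) in males. In females they were -0.17 (SE 0.31), 0.04 (SE 0.16), and 0.17 (SE 0.15). Leaving out the 3 libraries gave log2 fold changes in females of 0.25 for Hsp90aa1, -0.04 for Hspa5, 0.12 for Hsp90b1, -0.21 for Hsph1, 0.05 for Dnajb1, and 0.19 for Hspd1. A p that misses the threshold does not show that the diets had the same level.

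**Figure D3:**
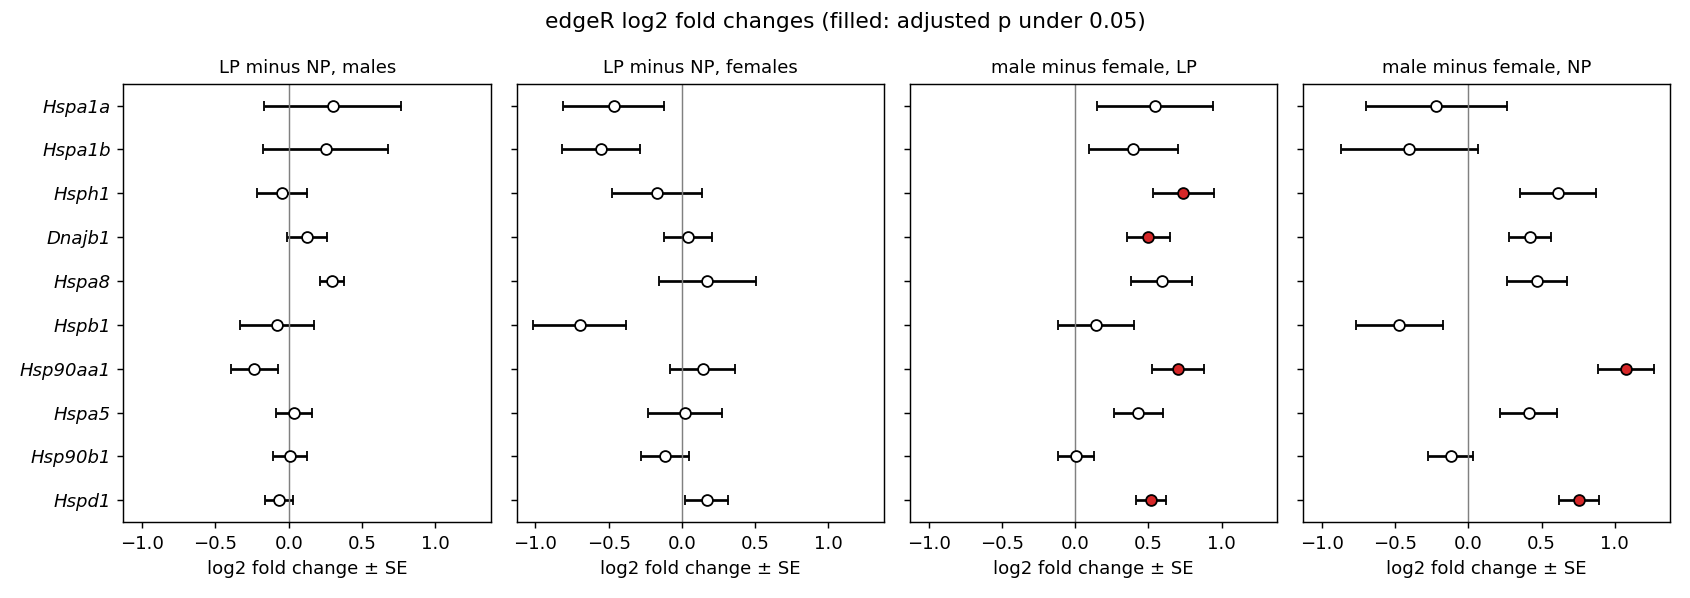
Log2 fold changes of the 10 genes with their SE from edgeR, for LP minus NP in each sex and for male minus female within each diet. Filled points have an adjusted p under 0.05: there are 0 in either diet comparison, 4 between the sexes in LP mice, and 2 in NP mice, all to the right of 0.

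With all libraries, edgeR called several cytosolic members and the mitochondrial one between the sexes, with the collection time differing alongside. In LP mice, 4 of 10 members were higher in males (Hspd1, Hsp90aa1, Hsph1, and Dnajb1) and 0 were lower, beside 10.9% of 13228 genes called higher in males and 18.9% called in either direction. In NP mice, 2 of 10 were higher in males (Hsp90aa1 and Hspd1) and 0 were lower, beside 8.19% of 12952 genes called higher in males and 15.1% in either direction. All 10 log2 fold changes in LP mice were above 0, with a median of 0.51 beside -0.03 over all genes; in NP mice 6 were above 0, with a median of 0.41 beside -0.05. Markers of other cell types moved with sex too. The 5 proximal tubule markers, all detected in every library, summed to 10967 to 13066 CPM in LP males against 5667 to 10708 CPM in LP females. In NP mice they summed to 10789 to 12013 against 6604 to 9899 CPM, so the sums of the sexes did not overlap in either diet. The single markers differed: Slc34a1 and Slc22a6 were higher in every male than in any female, whereas Lrp2, Cubn, and Slc5a2 overlapped between the sexes. Lrp2 and Cubn were highest in LP female 3, LP female 4, and LP female 5, with Lrp2 at 3605 to 3736 CPM against at most 2657 CPM in a male. The 3 podocyte markers summed to 140 to 207 CPM in LP males and 206 to 423 CPM in LP females, and to 129 to 171 and 195 to 340 CPM in NP mice. The 2 markers of the distal convoluted tubule summed to 408 to 600 and 526.2 to 958 CPM in LP mice, and to 315 to 432 and 664 to 825 CPM in NP mice. Both sums overlapped between the sexes in LP mice and not in NP mice, and the part of these markers in the members' differences was not tested. Without the 3 libraries that stood apart, 1 member (Hspd1) was called in LP mice and 2 in NP mice, all higher in males. This stands beside 10.9% and 6.93% of all genes called higher in males. The count in LP mice was 1 without LP male 3, 2 without LP male 4, LP male 5, LP female 1, LP female 2, or LP female 4, and 5 without LP female 3, which added Hspa8. In NP mice it was 4 without NP female 2, which added Hsph1 and Hspa5. Of all genes, 1654 to 2404 were called in LP mice and 1112 to 2899 in NP mice with 1 mouse left out. Other tools and filters added Hspa8 in LP mice (0.59, adjusted p = 0.0345 by DESeq2), Dnajb1 in NP mice (0.42, adjusted p = 0.0304 by DESeq2), and Hsph1 in NP mice (adjusted p = 0.0249 by limma-voom, 0.0471 by edgeR with no filter).

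Hspd1, the mitochondrial chaperonin, was called in both diets. It was 726, 704, 881, 726, and 741 CPM in LP males and 445, 475, 554, 586, and 521 CPM in LP females. It was 939, 707, 763, 750, and 780 CPM in NP males and 465, 497, and 377 CPM in NP females. No male overlapped any female of the same diet, which held in either direction for 15.6% of genes in LP mice and 23.4% in NP mice. The log2 fold change (male minus female) was 0.52 (SE 0.10, adjusted p = 0.0046 by edgeR) in LP mice and 0.76 (SE 0.14, adjusted p = 0.00763) in NP mice. Leaving out any 1 mouse kept Hspd1 past the threshold, with log2 fold changes of 0.45 to 0.57 in LP mice and 0.68 to 0.82 in NP mice. It was 0.42 (SE 0.10, adjusted p = 0.0168 by edgeR) and 0.68 (SE 0.15, adjusted p = 0.0209) without the 3 libraries.

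Hsp90aa1, the inducible Hsp90, was 189, 204, 326, 272, and 297 CPM in LP females and 215, 284, and 183 CPM in NP females, against the values of 309 to 572 CPM in LP males and 405 to 659 CPM in NP males. Males and females overlapped in LP mice through LP male 1 and LP female 3, and did not overlap in NP mice. By edgeR, males exceeded females by 0.70 on the log2 scale in LP mice (SE 0.18, adjusted p = 0.0189) and by 1.08 in NP mice (SE 0.19, adjusted p = 0.00635). In LP mice it was lost without the libraries that stood apart (0.48, adjusted p = 0.0665) and when LP male 3 was left out (0.56, adjusted p = 0.0582), while in NP mice each omission of 1 mouse kept it, and it was 0.98 (adjusted p = 0.0194) without NP female 3.

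Hsph1 and Dnajb1 are partners of the Hsp70 cycle. Hsph1 was 130, 143, 256, 191, and 156 CPM in LP males and 72.1, 84.1, 146, 98.7, and 113 CPM in LP females, which edgeR put at 0.74 on the log2 scale (SE 0.21, adjusted p = 0.0299). It was 229, 173, 150, 172, and 174 CPM in NP males and 106, 169, and 65.0 CPM in NP females, with 0.61 (SE 0.26, adjusted p = 0.135). NP female 2, at 169 CPM, lay within the range of the NP males. Dnajb1 was 43.0, 53.2, 76.3, 58.6, and 52.4 CPM in LP males and 37.4, 31.8, 49.0, 38.1, and 40.02 CPM in LP females, a log2 difference of 0.50 (SE 0.15, adjusted p = 0.0354 by edgeR). In NP mice it was 55.2, 57.4, 43.5, 47.8, and 55.5 CPM in males and 40.1, 41.1, and 30.2 CPM in females (0.42, SE 0.14, adjusted p = 0.0769). Both calls in LP mice were lost without the libraries that stood apart, with log2 fold changes of 0.52 (SE 0.21, adjusted p = 0.112 by edgeR) for Hsph1 and 0.39 (SE 0.17, adjusted p = 0.13) for Dnajb1. In NP mice they were 0.36 and 0.32 without NP female 3 (adjusted p = 0.301 and 0.175). They also depended on single mice: of 10 omissions of 1 mouse, Hsph1 kept its call in 4 (without LP male 1, LP male 2, LP female 3, or LP female 5) and Dnajb1 in 2 (without LP male 1 or LP female 3). The lowest log2 fold changes were those without LP male 3, at 0.55 (adjusted p = 0.0859) and 0.36 (adjusted p = 0.0976).

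Hspa8 and Hspa5 had positive log2 fold changes that did not pass the test by edgeR. For Hspa8 these were 0.59 (SE 0.21, adjusted p = 0.0695 by edgeR) in LP mice and 0.47 (SE 0.20, adjusted p = 0.146) in NP mice, although no male overlapped a female of the same diet. Hspa5 was 507, 728, 871, 623, and 645 CPM in LP males and 455, 345, 624, 479, and 551 CPM in LP females (0.43, SE 0.17, adjusted p = 0.0962). It was 702, 642, 603, 640, and 684 CPM in NP males and 505, 622, and 293 CPM in NP females (0.41, SE 0.20, adjusted p = 0.182). When the 3 libraries were left out, the log2 fold changes in LP and NP mice were 0.27 (SE 0.11) and 0.23 (SE 0.13) for Hspa8, and 0.26 (SE 0.16) and 0.19 (SE 0.14) for Hspa5. The second ER chaperone, Hsp90b1, stood at 191 to 288 CPM in LP males, 200 to 262 CPM in NP males, 191 to 271 CPM in LP females, and 206 to 276 CPM in NP females. The 4 groups overlapped, and its log2 fold changes were 0.01 (SE 0.12) in LP and -0.12 (SE 0.15) in NP mice. Hspa1a, Hspa1b, and Hspb1 were also not called between the sexes, with log2 fold changes of 0.54 (SE 0.39), 0.40 (SE 0.30), and 0.14 (SE 0.26) in LP mice and -0.22 (SE 0.48), -0.40 (SE 0.47), and -0.47 (SE 0.30) in NP mice. Without the 3 libraries these were 0.39, 0.34, and -0.14 in LP mice and -0.47, -0.47, and -0.72 in NP mice, and those of Hsp90b1 were -0.07 and 0.05, all with adjusted p above 0.05.

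Other genes of the chaperone systems were taken from lists. For diet in either sex and for the interaction of diet and sex, edgeR called 0 of their genes, with all libraries or without the 3 that stood apart. With all libraries, 0 to 2 genes of a list had an unadjusted p under 0.05 in these comparisons. Of 23 tested companions of the cytosolic heat shock response, 9 were higher in LP males than in LP females and 4 in NP males than in NP females, with 0 lower in either. Of all genes, 10.9% were called higher and 8.01% lower in LP males, and 8.19% and 6.89% in NP males, and each count below is to be read against these shares. Dnaja4, a J-domain co-chaperone, had the largest of these changes, with means of 26.2 CPM in LP males and 8.85 CPM in LP females (log2 fold change 1.53, SE 0.14, adjusted p = 3.64e-05 by edgeR). In NP mice Dnaja4 stood at 26.5 and 5.81 CPM (2.13, SE 0.35, adjusted p = 0.00442). Dnaja1 (0.76 in LP, 0.83 in NP) and the constitutive Hsp90 gene Hsp90ab1 (0.64 in LP, 0.77 in NP) were called in both diets, Stip1, which links Hsp70 to Hsp90, in LP mice (0.56), and the ubiquitin gene Ubb in NP mice (0.57). Without the 3 libraries that stood apart, 6 were higher and 1 (Dnajb4, -0.45) was lower in LP males, beside 10.9% and 9.8% of all genes, and 3 were higher and 0 lower in NP males, beside 6.93% and 7.09%. Dnaja4, Dnaja1, and Hsp90ab1 were among those higher in both diets.

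Of 23 ER companions, 7 were higher in males in LP mice and 3 in NP mice, with 0 lower. They were led by Edem1 and Sel1l, which act in ER-associated degradation. Edem1 had means of 197 CPM in LP males and 91.0 CPM in LP females (log2 fold change 1.09, SE 0.11, adjusted p = 8.79e-05 by edgeR) and a log2 fold change of 1.37 in NP mice. Sel1l had 1.07 in LP and 1.03 in NP mice, the protein disulfide isomerase P4hb 0.50 and 0.62, and Hspa13 was called in LP mice (0.42). Leaving the 3 libraries out, 4 ER companions were higher (Edem1, Sel1l, Dnajb11, and P4hb) and 1 was lower (Herpud1, -0.88, adjusted p = 0.00141 by edgeR) in LP males, and Edem1, Sel1l, and P4hb were higher in NP males. Of 9 mitochondrial companions, 1 was higher in males in LP mice and 2 in NP mice, namely Clpx (0.52 in LP, 0.53 in NP) and Dnaja3 (0.39 in NP), which in LP mice is close to the share of all genes. Without the 3 libraries the counts were 1 and 0. Of the 8 subunits of the cytosolic chaperonin TRiC, 3 were higher in males in each diet, with Cct6a (0.50 and 0.63) and Cct8 (0.41 and 0.42) in both, Cct3 in LP (0.36), and Tcp1 in NP mice (0.63), and without the 3 libraries 2 were higher in LP mice (Cct6a and Cct8) and 1 in NP mice (Cct6a). The median log2 fold changes between the sexes were 0.22, 0.25, 0.19, and 0.20 for the cytosolic, ER, mitochondrial, and TRiC lists in LP mice, beside -0.03 over all genes, and 0.33, 0.28, 0.35, and 0.37 in NP mice, beside -0.05.

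Lists for other stimuli were also counted. Of 6 glucocorticoid response genes, 1 was lower in males in LP mice (Sgk1, -1.74) and 3 were lower in NP mice (Sgk1, -1.91, Pdk4, -0.96, and Per1, -0.97), with 0 higher. Of 6 osmotic response genes, 1 was higher in males in LP mice (Akr1b3, which makes sorbitol, 1.68) and 0 in NP mice. Immediate early and interferon genes had 0 calls between the sexes in both diets by edgeR. When the 3 libraries that stood apart were left out, 4 glucocorticoid, 2 immediate early, 1 interferon, and 1 osmotic response genes were lower in LP males, and 3, 1, 3, and 1 in NP males.

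The 3 libraries that stood apart held the lowest levels of several members among females. In LP female 1, LP female 2, and NP female 3, Hspa8 was 720 to 946 CPM, against 1450 to 1939 CPM in the other 5 females. Hsph1 was 65.0 to 84.1 against 98.7 to 169 CPM, Hspb1 7.99 to 13.1 against 15.2 to 30.6 CPM, and Hspa5 293 to 455 against 479 to 624 CPM. Hsp90aa1 (183 to 204 against 215 to 326 CPM) and Dnajb1 (30.2 to 37.4 against 38.1 to 49.0 CPM) also did not overlap. Hspa1a, Hspa1b, Hsp90b1, and Hspd1 overlapped between these libraries and the other females. No test is given, since the libraries were set apart by a clustering that used these genes. Other lists moved with them. Fkbp5, a glucocorticoid-induced co-chaperone of Hsp90, was 27.6, 20.7, and 40.05 CPM in the 3 libraries and 246 to 501 CPM in the other females, and the 6 interferon genes summed to 69.5 to 99.96 CPM against 515 to 2156 CPM. Thick ascending limb markers summed to 1709, 4150, and 1858 CPM against 3866 to 6778 CPM, and the part of these differences in the members' levels was not tested. In bulk RNA, fewer cells of a type and less RNA per cell cannot be told apart.

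Over all groups together, Hspa1a and Hspa1b varied most among the members between mice of the same group. After group means were removed, the SD of log2(CPM + 1) was 0.67 for Hspa1b and 0.65 for Hspa1a, at the 96.4 and 96.1 percentiles of 12665 genes, whose median SD was 0.27. Within LP males the highest mouse exceeded the lowest 4.74-fold in Hspa1a and 3.31-fold in Hspa1b, and within NP males 4.20-fold and 4.36-fold. Within females they did not stand out. They ranged 2.08-fold and 1.98-fold in LP females, beside 2.33-fold for Hspb1. In NP females they ranged 2.54-fold and 1.79-fold, beside 2.59-fold for Hsph1 and 2.34-fold for Hspb1. By SD, Hspb1 (0.47) and Hsph1 (0.41) followed. Hspd1 (0.16) and Hsp90b1 (0.20) were among the steadier genes, at the 13.9 and 26.1 percentiles. Hspa8 had an SD of 0.37 over all groups, yet within NP males the highest exceeded the lowest 1.09-fold while LP and NP females ranged 2.29-fold and 2.05-fold.

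**Figure D4:**
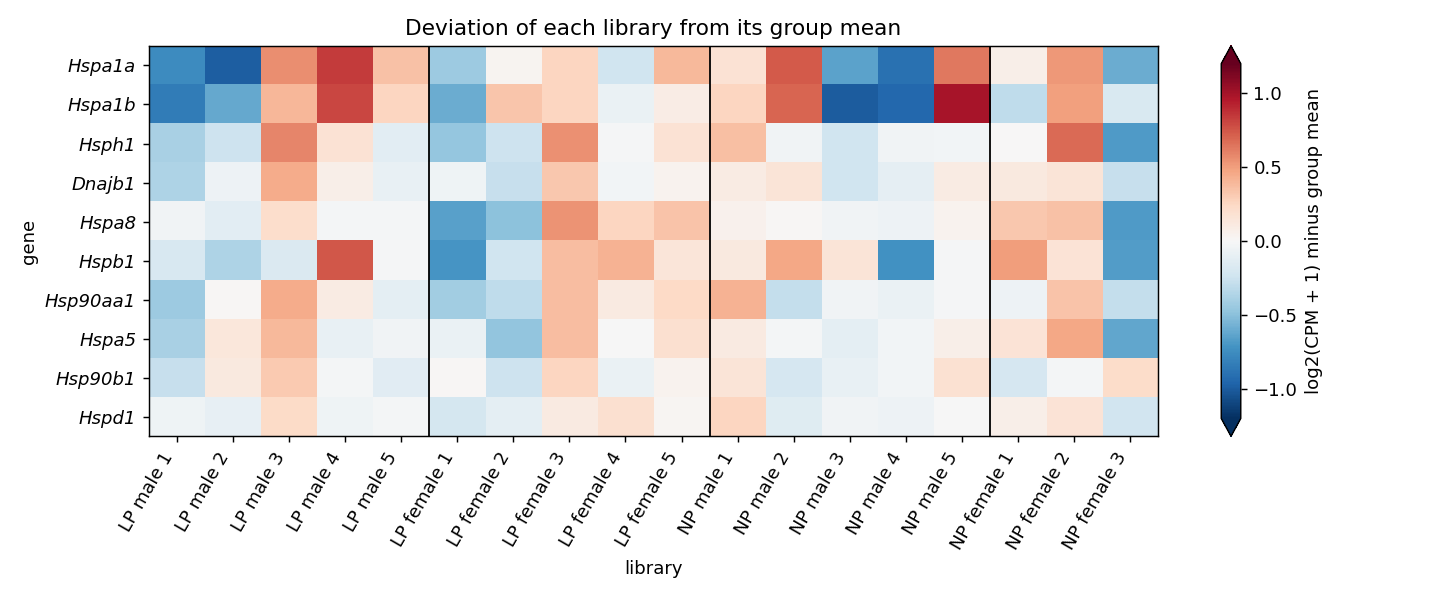
Deviation of each gene in each library from its group mean, in log2(CPM + 1), with red above and blue below the mean and black lines between groups. Hspa1a and Hspa1b change together from mouse to mouse within the males, and Hsph1, Hspa8, and Hspb1 are blue in LP female 1, LP female 2, and NP female 3.

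Several pairs of members varied together from mouse to mouse. Over the 18 libraries with group means removed, 24 of the 45 pairs of members had a positive correlation with an adjusted p under 0.05 (100000 permutations within groups, Benjamini-Hochberg over 45 pairs). Without the 3 libraries that stood apart 15 pairs did, and 12 pairs passed in both. The share of pairs that pass among all genes was not computed, so these counts do not set the members apart from other genes. Hspa1a and Hspa1b had the highest correlation, with r = 0.94 and rho = 0.91 over 15 libraries (p = 0.00023, adjusted p = 0.00405, permutation test), and r = 0.95 without the 2 farthest libraries. Their r was 0.96 over males and 0.74 over all females, the 3 libraries that stood apart included. The part of shared reads in this relation was not tested.

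Hsph1 varied with cytosolic members and with the ER member Hspa5, and over 15 libraries with Hsp90b1 too. Its correlation with Hsp90aa1 was r = 0.87 and rho = 0.81 over 15 libraries (p = 0.00069, adjusted p = 0.00621, permutation test), and r = 0.76 without the 2 farthest libraries. With Dnajb1 it was r = 0.82 and rho = 0.78 (p = 0.00036, adjusted p = 0.00405, permutation test), and r = 0.71 without the 2 farthest. These pairs had r = 0.87 and 0.87 over males and 0.92 and 0.84 over all females, the 3 libraries that stood apart included. Hsph1 also varied with Hspa5 (r = 0.81, rho = 0.78, p = 0.00586, adjusted p = 0.0264, permutation test) and with Hsp90b1 (r = 0.76, rho = 0.73, p = 0.00578, adjusted p = 0.0264, permutation test) over 15 libraries. Hsp90aa1 varied with Hsp90b1 (r = 0.87, rho = 0.89, p = 0.00036, adjusted p = 0.00405, permutation test) and with Hspa5 (r = 0.83, rho = 0.81, p = 0.00193, adjusted p = 0.0124, permutation test). Dnajb1 and Hspa5 had r = 0.83 and rho = 0.74 (p = 0.00362, adjusted p = 0.0204, permutation test). Without the 2 farthest libraries these 5 relations had r = 0.70, 0.60, 0.76, 0.62, and 0.56. Over all 18 libraries, Hsph1 and Hsp90b1 had r = 0.35 and did not pass (adjusted p = 0.26, permutation test). Hsp90aa1 and Hsp90b1 had r = 0.60 there (adjusted p = 0.042, permutation test). Over all females these 2 pairs had r = 0.06 and 0.28. Of the 15 passing pairs, 6 joined cytosolic members to each other (of 21 pairs), 6 a cytosolic to an ER member (of 14), 2 a cytosolic member to Hspd1 (of 7), and 1 the ER members. The relation of Hsph1 to Hspd1 over 15 libraries (r = 0.65) fell to 0.23 without the 2 farthest libraries, so there it rested on those. Over all 18 libraries it had r = 0.82 (adjusted p = 0.00295, permutation test), and 0.76 without the 2 farthest.

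The ER chaperones Hspa5 and Hsp90b1 moved together over 15 libraries, with r = 0.90 and rho = 0.84 (p = 0.00026, adjusted p = 0.00405, permutation test) and r = 0.82 without the 2 farthest libraries. Over all 18 libraries r was 0.39 and did not pass (adjusted p = 0.215, permutation test), with r = 0.88 over males and 0.09 over females. In LP female 1, LP female 2, and NP female 3, Hspa5 lay at -0.08, -0.48, and -0.62 from its group means in log2(CPM + 1), and Hsp90b1 at 0.02, -0.24, and 0.22. The members thus went opposite ways in NP female 3. The reverse occurred for Hspa8 and Hspb1, with r = 0.68 over 18 libraries (adjusted p = 0.0186, permutation test) and 0.12 over 15, so this relation rested on those libraries.

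**Figure D5:**
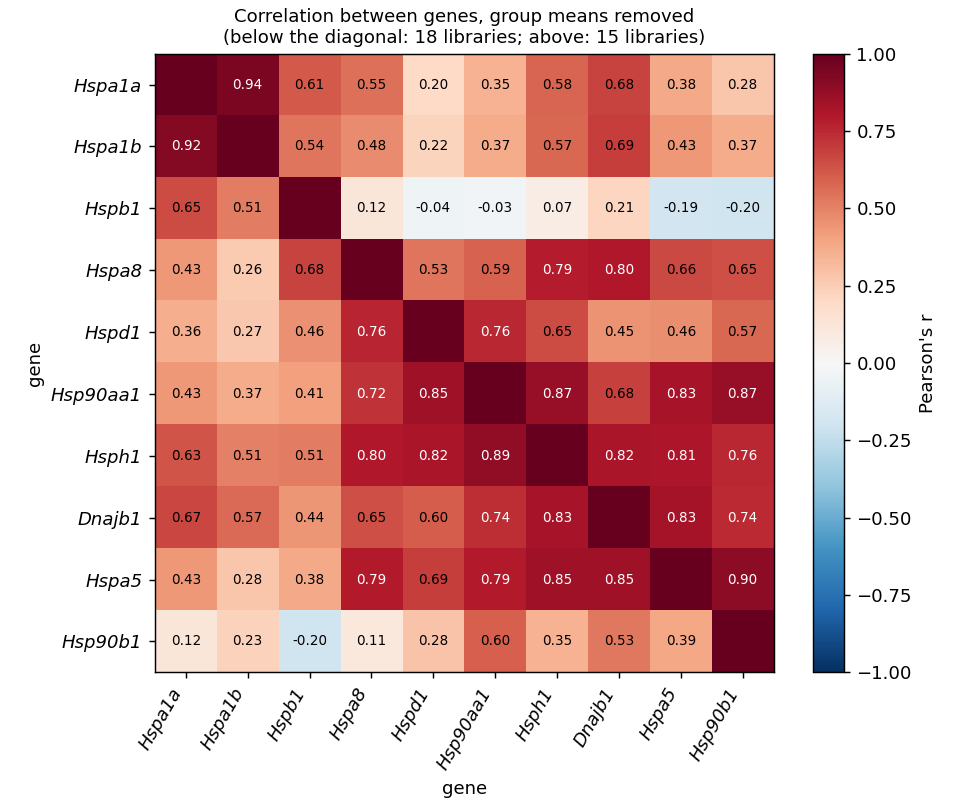
Pearson's r between each pair of the 10 genes after group means were removed, over all 18 libraries below the diagonal and over the 15 libraries without LP female 1, LP female 2, and NP female 3 above it. Hspa1a and Hspa1b have r = 0.92 below and 0.94 above, and Hspa5 and Hsp90b1 have 0.39 below and 0.90 above.

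The genes outside the set most like each member were found by Pearson's r over the 18 libraries with group means removed, as a description with no test. Hsph1 was most like Dnaja1 (r = 0.95) and Hspa4 (0.90), another Hsp70 exchange factor, followed by Pard3 (0.90). Hsp90aa1 was most like its constitutive counterpart Hsp90ab1 (0.92), then Nt5e and Dnaja1 (0.87 each). Hspa5 was most like the ER chaperone Hyou1 (0.92), then Plbd2 (0.89) and Ythdf2 (0.89). Hsp90b1 was most like Acp2 (0.87) and the ER proteins Calr and Pdia3 (0.84 each).

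The inducible pair had Tmem30b in common among its nearest genes. Hspa1b was most like Cryab (0.92), a small heat shock protein, Tmem30b (0.91), and Wnt7b (0.90), and Hspa1a was most like Tmem30b (0.90), Fermt1 (0.87), and Ptpn14 (0.86). Dnajb1 was most like Ythdf2 (0.87), Epdr1 (0.84), and Bcl9l (0.82), and Hspb1 was most like Dsg2 (0.89), Rab11fip1 (0.88), and Elovl6 (0.87). Hspd1 was most like Oplah (0.93), the proteasome subunit gene Psmd2 (0.91), and Entpd5 (0.90). Among the genes most like Hspa8 were Gm15459 and Mybbp1a (0.96 each); 83.8% of the 31-base words in the exons of Gm15459 also occur in Hspa8, so their reads may not be told apart.

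Markers of kidney segments were set beside the members, and these relations were computed after the values had been seen. The inner medullary markers Slc14a2 and Aqp4 summed to 35.3 to 112 CPM in LP males, 21.6 to 149 CPM in NP males, 85.4 to 306 CPM in LP females, and 160.0 to 316 CPM in NP females. Their correlation with Hspa1b was r = 0.78 and rho = 0.70 over 18 libraries (p = 0.0035, adjusted p = 0.141 over 120 relations, permutation test), r = 0.86 over males, 0.48 over females, and 0.70 without the 2 farthest libraries. With Hspa1a it was r = 0.71 and rho = 0.66 (p = 0.0073, adjusted p = 0.146, permutation test), r = 0.77 over males, 0.47 over females, and 0.69 without the 2 farthest. The collecting duct markers had r = 0.68 with Hspa1b and 0.55 with Hspa1a over 18 libraries (adjusted p = 0.243 and 0.294, permutation test), and opposite signs by sex, with 0.89 and 0.79 over males and -0.80 and -0.85 over females. None of the 120 relations between the 10 members and 12 marker lists passed at an adjusted p under 0.05. The smallest p for Pearson's r was that of Hspd1 with the leukocyte markers (r = -0.67, p = 0.00176, adjusted p = 0.141, permutation test). Hspa8 had r = 0.80 with the thick ascending limb markers, and Hspa1b r = -0.57 with those of the distal convoluted tubule (adjusted p = 0.141 for each, permutation test). Without the 3 libraries that stood apart, these were 0.18 and -0.72, and over males 0.32 and -0.80. Which regions each piece of kidney held is not given in the sources used here. The part of medullary tissue in the spread of Hspa1a and Hspa1b was not tested.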

How the data were processed

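RNA-Seq was performed on poly(A)-selected, non-directional libraries of left kidney RNA. The authors deposited raw read counts per gene, made from reads aligned to GRCm39 (GENCODE vM36) with STAR, and the unstranded column was used here. Rows that name no gene held 28.6% to 36.1% of the reads and were left out. Of 78239 gene IDs, 78168 matched GENCODE vM39, the source of symbols, coordinates, and exon lengths. Some design facts, such as the diets, age, and collection times, come from the methods of the study.

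Groups were compared by edgeR (version 4.0.16, in R 4.3.3) with its quasi-likelihood F-test after TMM normalization. Genes entered where no compared library had fewer than 10 counts, with Benjamini-Hochberg adjustment over all genes tested. A call is an adjusted p under 0.05. Each comparison used only the groups compared, and the interaction used all 4. The code was tested on simulated data. Single genes were also compared by exact two-sided permutation of log2(CPM + 1), for which 5 against 5 mice allow p = 0.00794 at the lowest and 5 against 3 allow 0.0179. Correlations used 100000 permutations within groups. Replicates are separate mice. The tests treated them as independent, although the diet was given to dams and mice of a group may be littermates. No 2 libraries of a group agreed within sampling noise (chi-square per degree of freedom at least 12.1). The precision of a level is set by its counts, from 28 for Hspa1a to 45636 for Hspa8.

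The members and lists were chosen with earlier results of these data known. Named genes are the members, up to 4 called genes per list and comparison with the smallest p, the 3 genes most like each member, and list genes whose values stand beside a result; 1 gene that this rule names is not reported here. Alternatives were other filters, DESeq2 1.42.0 and its size factors, limma-voom (limma 3.58.1) with sample weights, 1 model of all groups, blocking on the replicate number, strand-specific columns summed, a 1.5-fold minimum, library totals without TMM, and omission of single libraries or of the 3 that stood apart. Tables were handled in Python 3.11.15 with pandas 2.3.3, numpy 2.4.6, and scipy 1.17.1. Promoters were read from GRCm39, and no protein sequence was used here.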

Additional observations from a re-analysis of the deposited data

Results flagged for a closer look

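Of 30 groups of 5 mice examined for a mouse far from the rest of its group (Dixon's ratio above 0.71), 3 had one, and chance gives about 1 in 20. Hspa8 in LP male 3 was 2482 CPM, against 2110 CPM in the next LP male. Hspd1 in LP male 3 was 881 CPM, against 741 CPM in the next. Hspb1 in LP male 4 was 26.3 CPM, against 15.2 CPM in the next. Without LP male 3, the log2 fold change of Hspa8 by diet in males was 0.24 and that of Hspd1 between the sexes in LP mice was 0.45.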

How the results depend on the processing

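The counts of genes and members called depended on the tool and on single libraries, and log2 fold changes near 0 turned sign. For diet in males, the number of genes called (5) was 9 with no filter, 19 by DESeq2, 1 with all groups in 1 model, and 2 to 6 with 1 mouse left out (2 or 3 without each mouse but LP male 4), and the number of members called (0) was 1 by DESeq2 and 0 with each mouse left out. Hsp90b1 turned to -0.014 with the strand-specific columns. For diet in females, genes called (0) were 3 with no filter, 9 by DESeq2, 2 with all groups in 1 model, 1 without the 3 libraries that stood apart, and 0 to 2 with 1 mouse left out (2 without NP female 2), with 0 members in each. Here Hsph1 (0.084) and Hsp90b1 (0.090) turned sign by limma-voom, and Hspa5 (-0.040) and Hsp90b1 (0.12) without the 3 libraries. For the interaction, genes called (2) were 5 by DESeq2, 7 by limma-voom, 0 with the strand-specific columns or without the 3 libraries, and 0 to 4 with 1 mouse left out (0 without LP male 3 or NP female 3, 4 without NP female 2). Hspa5 turned to 0.0024 with filterByExpr, 0.0078 with no filter, and 0.063 by limma-voom, Hsph1 to 0.16 and Hsp90b1 to 0.076 by limma-voom, and Hsp90b1 to 0.095 without the 3 libraries.

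Between the sexes in LP mice, members called (4) were 2 with a 1.5-fold minimum or by limma-voom, 1 without the 3 libraries, and 1 to 5 with 1 mouse left out (1 without LP male 3, 2 without LP male 4, LP male 5, or LP female 1, 2, or 4), while genes called (2505) were 1583 with a 1.5-fold minimum and 1654 (without LP male 3) to 2404 with 1 mouse left out. Hspb1 and Hsp90b1 turned to -0.052 and -0.058 by limma-voom and to -0.14 and -0.068 without the 3 libraries, and Hsp90b1 to -0.00061 with all groups in 1 model. In NP mice, genes called (1954) were 2958 by DESeq2, 3654 by limma-voom, 3118 with all groups in 1 model, and 1112 to 2899 with 1 mouse left out (1112 without NP male 4, 1150 without NP male 1, 1159 without NP male 3, 1214 without NP female 1), and members called (2) were 2 to 4 (4 without NP female 2), with 3 by DESeq2, by limma-voom, and with no filter. Hsp90b1 turned to 0.022 by limma-voom and 0.048 without NP female 3. Members with an exact permutation p under 0.05 numbered 1 to 2 (without LP male 3) for diet in males, 0 for diet in females, 5 to 6 between the sexes in LP mice, and 3 (without NP male 1, 2, 4, or 5) to 6 in NP mice with 1 mouse left out, and 2 in NP mice with plain library totals. Pairs of members with a correlation past the threshold (24) were 15 without the 3 libraries. Of the list genes, counted without the 3 libraries as an alternative chosen after seeing the data, ER companions higher in LP males (7) were 4, mitochondrial and TRiC genes higher in NP males (2 and 3) were 0 and 1, and genes lower in LP males rose from 0 to 1 in the cytosolic, ER, osmotic, and interferon lists, from 0 to 2 in the immediate early list, and from 1 to 4 in the glucocorticoid list. In NP males those lower rose from 0 to 1 osmotic, 1 immediate early, and 3 interferon genes. The causes of these changes were not tested.

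With 1 mouse left out, log2 fold changes by diet in males turned sign for Hsph1 (-0.21 to 0.058), Hspb1 (-0.34 to 0.058), Hsp90b1 (-0.073 to 0.070), Dnajb1 (-0.0017 to 0.21), Hspa5 (-0.065 to 0.12), and Hspd1 (-0.12 to 0.0039). In females they did for Dnajb1 (-0.046 to 0.12), Hspa5 (-0.20 to 0.27), Hsph1 (-0.41 to 0.23), Hspa8 (-0.064 to 0.34), and Hsp90b1 (-0.21 to 0.054). For the interaction they did for Hspa5 (-0.25 to 0.20), Hsph1 (-0.38 to 0.25), Dnajb1 (-0.18 to 0.037), Hspa8 (-0.37 to 0.020), and Hsp90b1 (-0.25 to 0.035). Between the sexes they did for Hsp90b1 (-0.085 to 0.069) and Hspb1 (-0.11 to 0.25) in LP mice and for Hspa1a (-0.47 to 0.12) and Hsp90b1 (-0.24 to 0.048) in NP mice.

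Replicate numbers did not pair the mice: same-numbered libraries had median correlations of -0.15 and -0.44 between the diets in males and females and -0.030 and 0.14 between the sexes in LP and NP mice. With the replicate number as a block, genes called were 2 for diet in males, 0 for the interaction, 1542 between the sexes in LP mice, and 363 in NP mice, members called in NP mice were 0 (adjusted p = 0.082 for Hsp90aa1 and 0.0885 for Hspd1), and Hspa8 (-0.061) and Hspa5 (-0.015) turned sign for diet in females. At least 28 counts lay behind each value, so depth limited Hspa1a most.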
